A study of Mus musculus with 5 samples.

Results

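Far intergenic BRG1 peaks are the sites of BRG1 binding that lie deep between genes in macrophages grown from mouse bone marrow and treated with oxidised low-density lipoprotein (oxLDL). They were taken from the oxLDL WT peak list by position: a width under 1000 bp, a summit outside every protein-coding gene, and more than 20 kb from the nearest gene end. Positions before 3.1 Mb of chromosome 9 were left out. The rule uses no binding strength, and it found 1094 peaks, 11.0% of the 9907 peaks of that list (Wilson 95% interval 10.4 to 11.7) and 11.7% of its 9341 narrow peaks. The series holds 14951 peaks in its 4 lists.

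The SWI/SNF complexes use the ATPase BRG1, the product of Smarca4, to move nucleosomes and open chromatin. BAF60a, the product of Smarcd1, links these complexes to transcription factors. Sites far from genes are often enhancers, stretches of open chromatin that can act on a promoter over a long distance. In macrophages many enhancers are opened by PU.1 together with C/EBP and AP-1 factors.

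BRG1 ChIP-seq (chromatin immunoprecipitation and sequencing) was made in primary bone marrow-derived macrophages from wild-type (WT) and Baf60a knockout (KO) mice, each untreated or given oxLDL. The 4 groups are WT, KO, oxLDL WT and oxLDL KO, with 1 library each, and an input library was not analysed here. How much oxLDL was given and for how long, the kind of knockout, and the strain, age, sex and number of mice were not given in the sources used. Each group being a single library, no replicate check and no test between groups could be made, and all intervals are Wilson 95% intervals that cover counting error only. Fold enrichment is the authors' value of the fragment pileup over the local background at the summit, and it is read within a list. A distance to a gene does not show that a peak acts on that gene.

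The depth of a peak list was judged from its lowest local background, which was 3.76 fragments in oxLDL WT, 3.42 in oxLDL KO, 3.84 in KO and 2.70 in WT. A median far peak of the oxLDL WT list rested on a pileup of 17 fragments, with a fold enrichment of 3.57 and a −log10 q of 3.43. The fold enrichment of the members ran from 1.39 to 9.38, with quartiles of 3.15 and 4.20. Their width ran from 235 to 996 bp with a median of 338.5 bp. Because pileups are whole fragments over a mostly flat background, values repeat: 96 members had a fold enrichment of 3.36, a pileup of 15, and 94 had 3.57, a pileup of 16. Differences between neighbouring values of this kind are differences of 1 fragment.

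Some far peaks lay at, or close to, the first base of a long non-coding RNA (lncRNA), and the promoter sequences of these are shown. Promoter windows from RefSeq (GRCm38.p6, the assembly of mm10) run from 250 bases before to 50 after a transcription start. Members overlapped the windows of 29 lncRNA genes, by 1 to 300 bases, and the summit lay inside the window at 11 of them. A window is not the peak itself, and part of it can lie outside the peak. The 7 windows below are those with the summit inside and an oxLDL KO peak on the same site (Zmiz1os1, Gm32287 and 2810410L24Rik), the 3 highest of the rest by fold enrichment, and Malat1, a highly expressed nuclear lncRNA. Letters are 5′ to 3′ on the strand of the lncRNA, and capitals mark every match to the 6 motifs named after them.
Zmiz1os1 (chr14:25378627-25378926, minus strand): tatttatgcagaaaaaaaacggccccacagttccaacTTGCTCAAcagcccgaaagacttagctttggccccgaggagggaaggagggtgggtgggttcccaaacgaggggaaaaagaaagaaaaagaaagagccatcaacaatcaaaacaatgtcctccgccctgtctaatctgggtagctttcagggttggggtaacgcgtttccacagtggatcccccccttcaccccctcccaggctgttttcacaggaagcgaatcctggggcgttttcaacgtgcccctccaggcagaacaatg
Gm32287 (chr2:167777663-167777962, minus strand): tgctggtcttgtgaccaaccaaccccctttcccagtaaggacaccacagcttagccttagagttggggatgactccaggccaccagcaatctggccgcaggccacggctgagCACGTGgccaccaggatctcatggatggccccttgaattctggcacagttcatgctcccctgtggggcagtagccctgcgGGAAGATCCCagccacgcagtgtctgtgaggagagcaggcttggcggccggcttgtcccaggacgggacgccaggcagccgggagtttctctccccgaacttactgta
2810410L24Rik (chr11:120189807-120190106, minus strand): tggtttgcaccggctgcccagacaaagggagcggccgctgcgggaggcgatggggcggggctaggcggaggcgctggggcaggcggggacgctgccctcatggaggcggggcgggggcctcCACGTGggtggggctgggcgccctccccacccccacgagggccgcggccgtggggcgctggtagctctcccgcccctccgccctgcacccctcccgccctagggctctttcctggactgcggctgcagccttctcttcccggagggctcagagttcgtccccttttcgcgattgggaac
Gm33391 (chr8:86920955-86921254, plus strand): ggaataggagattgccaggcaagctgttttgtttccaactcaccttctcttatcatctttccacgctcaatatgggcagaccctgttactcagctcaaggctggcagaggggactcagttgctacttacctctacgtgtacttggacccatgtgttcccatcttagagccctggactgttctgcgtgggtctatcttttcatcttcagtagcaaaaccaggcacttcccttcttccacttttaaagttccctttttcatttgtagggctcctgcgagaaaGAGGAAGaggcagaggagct
5031425F14Rik (chr2:166447201-166447500, plus strand): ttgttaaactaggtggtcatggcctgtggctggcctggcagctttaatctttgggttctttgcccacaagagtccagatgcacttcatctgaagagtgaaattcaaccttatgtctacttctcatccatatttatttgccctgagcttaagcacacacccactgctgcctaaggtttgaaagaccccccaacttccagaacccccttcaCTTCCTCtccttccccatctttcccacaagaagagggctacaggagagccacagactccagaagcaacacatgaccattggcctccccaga
Gm34589 (chr14:102828159-102828458, minus strand): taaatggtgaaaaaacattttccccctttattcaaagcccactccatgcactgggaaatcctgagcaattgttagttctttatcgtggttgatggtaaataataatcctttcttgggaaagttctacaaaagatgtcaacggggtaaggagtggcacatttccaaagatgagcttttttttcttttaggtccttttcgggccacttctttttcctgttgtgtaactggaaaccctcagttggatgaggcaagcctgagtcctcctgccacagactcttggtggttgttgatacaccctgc
Malat1 (chr19:5802623-5802922, minus strand): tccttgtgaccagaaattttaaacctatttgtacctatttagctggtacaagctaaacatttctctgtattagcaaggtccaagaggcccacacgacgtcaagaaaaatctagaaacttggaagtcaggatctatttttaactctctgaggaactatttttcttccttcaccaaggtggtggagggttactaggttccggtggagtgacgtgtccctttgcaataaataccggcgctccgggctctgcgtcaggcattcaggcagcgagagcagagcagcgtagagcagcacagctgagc

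The motifs searched, on both strands, were GAGGAAG for PU.1, TGANTCA for AP-1, TTGCNNAA for C/EBP, the E-box CACGTG, TGACNNNGC for the antioxidant response element and, for NF-kB, GGGA and TTCC with any 2 bases between them. The AP-1 and antioxidant letters can overlap. The PU.1 letters stood in 7 of the 29 windows (24.1%), against 13.7% of all lncRNA windows and 13.4% of all windows of that length. C/EBP letters stood in 6 of 29 (20.7%, against 12.01% and 10.9%) and the E-box in 5 of 29 (17.2%, against 5.83% and 7.14%). AP-1 letters stood in 3 (10.3%, against 9.25% and 7.84%), antioxidant letters in 3 (10.3%, against 11.4% and 12.5%) and NF-kB letters in 1 (3.45%, against 1.49% and 1.45%). These are matches of letters in 29 windows, given as a description. In the windows shown, the capitals are a PU.1 match in Gm33391 and 5031425F14Rik, a C/EBP match in Zmiz1os1, an E-box in 2810410L24Rik, and an E-box and an NF-kB match in Gm32287. The PU.1 match of Gm33391 lay 89 bp outside the member, and the other 5 matches lay inside theirs. The windows of Gm34589 and Malat1 held none of the 6 motifs. The members covered 300 of the 300 bases of the window at Zmiz1os1, 279 at Gm34589, 237 at Gm32287, 217 at 5031425F14Rik, 200 at 2810410L24Rik, 192 at Gm33391 and 123 at Malat1.

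At Zmiz1os1 the summit lay 63 bp from the start, and 79.1 kb from Zmiz1, a gene for a transcriptional coactivator. Its fold enrichment was 5.11, and that of the oxLDL KO peak 3.90. At Gm32287, which lies between Cebpb, the gene of the transcription factor C/EBP-beta, and the phosphatase gene Ptpn1, the values were 4.62 and 5.66, with the summit 79 bp from the start. At 2810410L24Rik they were 3.99 and 4.07, at 66 bp. The summit in the Malat1 window was in oxLDL WT alone, with 3.34, 197 bp from the start, and Mirt1, near the phosphatase gene Dusp5, likewise had a summit in oxLDL WT alone with 3.90. None of these 5 sites had a peak in the untreated WT list. E130102H24Rik, near the adenylate kinase gene Ak4, had its whole window inside a member of 5.25, overlapped by an oxLDL KO peak of 3.90, with the summit 206 bp from the start.

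Most far peaks were not at lncRNA starts. Of the members, 73 (6.67%) had their summit within 1 kb of a lncRNA start, and 14 of these were overlapped in oxLDL KO (19.2%, interval 11.8 to 29.7). This is near the share over all members, 18.7%, and that over all narrow oxLDL WT peaks was 24.8%. The starts came from the promoter windows, which hold none for chromosome 18, so its 28 members were counted as not near a start. A summit inside a lncRNA gene was found for 327 members (29.9%, interval 27.3 to 32.7), while lncRNA genes fill 12.3% of the far intergenic sequence. No summit lay inside or within 1 kb of a miRNA gene, and 3 lay within 20 kb of an immunoglobulin or T cell receptor segment. When every annotated gene, non-coding ones included, set the distance, 334 peaks remained beyond 20 kb.

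Far intergenic sequence was the poorest in peaks. It makes up 1052 Mb, 43.8% of the span examined on chromosomes 1 to 19, and held 11.7% of the narrow peaks, or 1.04 peaks per Mb. The same list held 4.03 peaks per Mb at 1 to 20 kb from a gene, 4.12 inside genes and 40.6 within 1 kb of a gene end. Peaks thinned out further with distance. There were 2.67 peaks per Mb at 20 to 50 kb from the nearest gene end, 1.41 at 50 to 100 kb, 0.946 at 100 to 200 kb, 0.249 at 200 to 500 kb and 0.0844 beyond 500 kb. The median member lay 47.9 kb from a gene end, and 10% of members lay beyond 178.9 kb.

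The member nearest the limit was a peak 20.055 kb from the interferon receptor gene Ifnar2, with a fold enrichment of 4.20. Equally near to each other, at 20.139 kb, were a peak beside Mrps33 with 3.99 and a peak beside Vmn2r82 with 3.15. Just outside the limit were a peak exactly 20 kb from Itpr1 with 3.99 and a peak 19.908 kb from Il20ra with 3.72. At the other end, the farthest member lay 1326 kb from Zeb2, a transcription factor gene of the myeloid lineage, and had 3.99. The next lay in the interval between Pabpc4l and Pcdh18 (1103 kb, 2.94) and in that between Nmbr and Cited2 (1070 kb, 3.36). No oxLDL KO peak overlapped any of these 3. The 2 that follow, between Lrrc4c and Iftap at 1035 and 1031 kb, had peaks in all 4 lists, with a fold enrichment of 1.94 and 1.77. Their local background was at least 2057 and 2964 fragments. These are lower bounds, since the recovery of the background stopped short at so high a −log10 p.

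Peaks of the oxLDL KO list thinned out less with distance. Its 522 far intergenic peaks had a density of 1.03 peaks per Mb at 20 to 50 kb, 0.615 at 50 to 100 kb, 0.468 at 100 to 200 kb, 0.284 at 200 to 500 kb and 0.119 beyond 500 kb. The number in oxLDL KO divided by that in oxLDL WT was thus 0.387, 0.436, 0.495, 1.14 and 1.41 in turn, against 0.491 over all narrow peaks. Beyond 200 kb the oxLDL KO list had 73 and 24 peaks and the oxLDL WT list 64 and 17. Without peaks in high local background, described below, the ratios of these last bins were 1.13 and 1.50, and among peaks whose −log10 q reached 2 they were 1.02 and 1.91. The oxLDL KO peaks there were seldom shared: 17 of 73 (23.3%, interval 15.1 to 34.2) and 3 of 24 (12.5%, interval 4.34 to 31.0) had an oxLDL WT counterpart. The share was 112 of 220 at 20 to 50 kb (50.9%, interval 44.3 to 57.4) and 58.9% over all narrow oxLDL KO peaks. Without high-background peaks the counts were 15 of 70 and 0 of 21, against 108 of 211 at 20 to 50 kb. With 1 library per genotype, a difference between genotypes and a difference between libraries cannot be told apart.

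**Figure D1:**
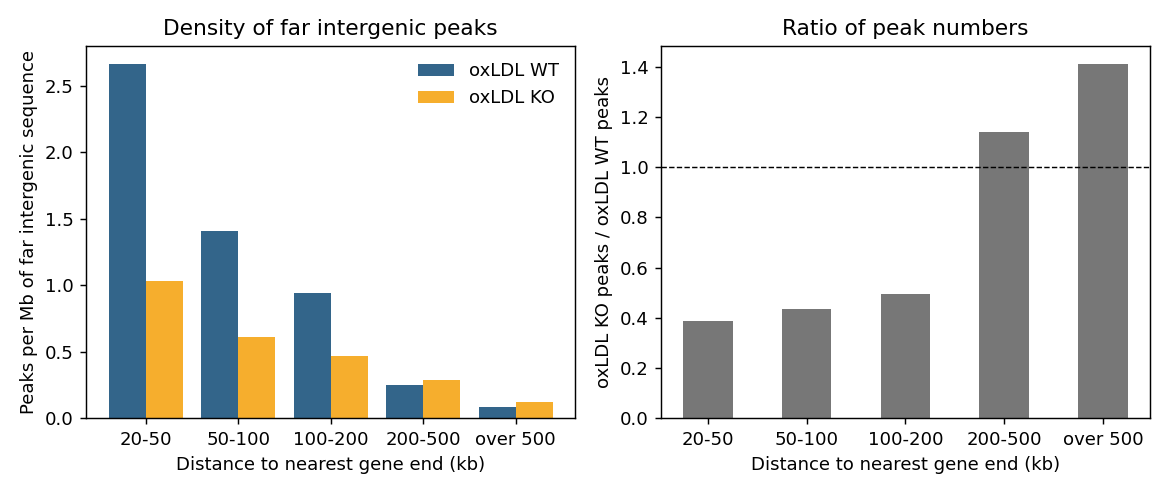
Left, far intergenic peaks per Mb of far intergenic sequence by distance to the nearest protein-coding gene end (kb), in the oxLDL WT and oxLDL KO lists; right, the number of oxLDL KO peaks divided by that of oxLDL WT in each bin, with a dashed line at 1. The ratio is 0.387 at 20 to 50 kb and 1.41 beyond 500 kb, where the lists hold 24 and 17 peaks.

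The next comparison asks which far sites were also called without BAF60a. An oxLDL KO peak overlapped 205 of the 1094 members by at least 1 bp (18.7%, interval 16.5 to 21.2), where the background over all narrow oxLDL WT peaks was 24.8%. The share was 19.6% at 1 to 20 kb from a gene (interval 17.6 to 21.8), 22.5% inside genes (21.2 to 23.8) and 32.4% at gene ends (30.8 to 34.1). The far share and that at 1 to 20 kb thus have overlapping intervals, while its upper bound of 21.2 touches, to 3 digits, the lower bound inside genes and lies below that at gene ends. Seen from the other list, 226 of the 522 far oxLDL KO peaks had a counterpart in oxLDL WT (43.3%, interval 39.1 to 47.6), where the background over all narrow oxLDL KO peaks was 58.9%. That share was 56.5% at 1 to 20 kb (52.3 to 60.6). It was 59.9% inside genes (57.6 to 62.2) and 63.2% at gene ends (61.0 to 65.5).

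Overlap rose with peak height. In the lowest fold enrichment quintile of the list, 25 of 248 members were overlapped (10.1%, interval 6.92 to 14.5), and in the highest 84 of 222 (37.8%, interval 31.7 to 44.4). The lowest quintile holds all 17 high-background members, described below, and 13 of these were overlapped. The gene-end class has no high-background peak. Gene-end peaks of the same quintiles had 22.2% (19.1 to 25.6) and 46.9% (42.7 to 51.1). With the quintile makeup of the far peaks, the gene-end share would be 32.6%, that inside genes 22.1% and that at 1 to 20 kb 18.6%. Where −log10 q reached 5, 103 of 256 members were overlapped (40.2%, interval 34.4 to 46.3). The other classes then had 41.3% at 1 to 20 kb (36.2 to 46.6), 38.9% inside genes (35.8 to 42.2) and 46.5% at gene ends (42.7 to 50.4), so at that limit all 3 intervals overlap that of the far peaks.

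**Figure D2:**
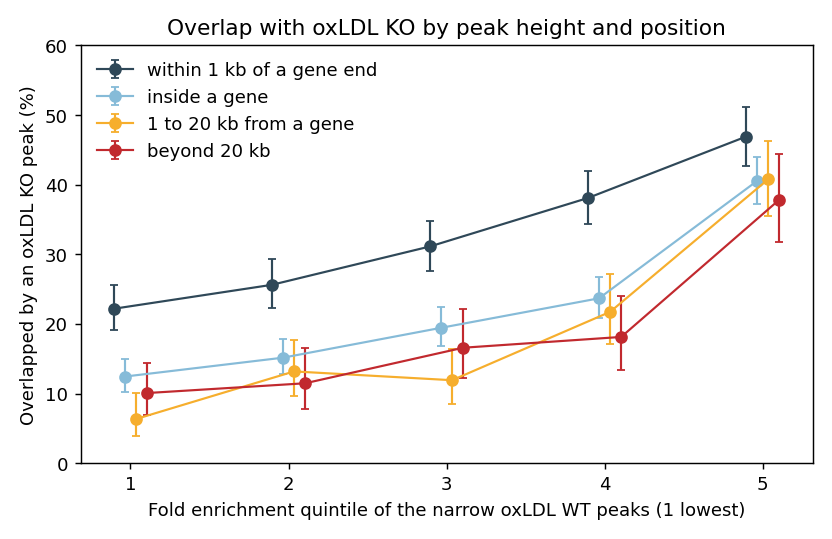
Share of narrow oxLDL WT peaks overlapped by an oxLDL KO peak (%, with Wilson 95% intervals) by quintile of fold enrichment over the list, for 4 classes of position. In the far class the share is 10.1% in quintile 1 and 37.8% in quintile 5, below the gene-end class in each quintile. Quintile 1 holds all 17 high-background members of the far class, of which 13 were overlapped.

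The 205 overlapped members had a median fold enrichment of 3.99 (quartiles 3.57 and 4.83) and a median width of 433 bp. The 889 others had 3.57 (3.15 and 3.99) and 323 bp. The overlapping oxLDL KO peaks had a median of 4.03 on their own list's scale (quartiles 3.39 and 4.53). Summits were close together: the median distance was 63 bp, and 161 of the 205 pairs lay within 200 bp. Of the 889 others, 68 had an oxLDL KO summit within 1 kb and 213 within 10 kb (24.0%), and the median distance to one was 47.8 kb. Leaving out high-background members, Spearman's rho between the fold enrichments of the 2 lists was 0.37 and Pearson's r 0.49 over 192 members, given as a description of pairs that each had to pass both peak calls.

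**Figure D3:**
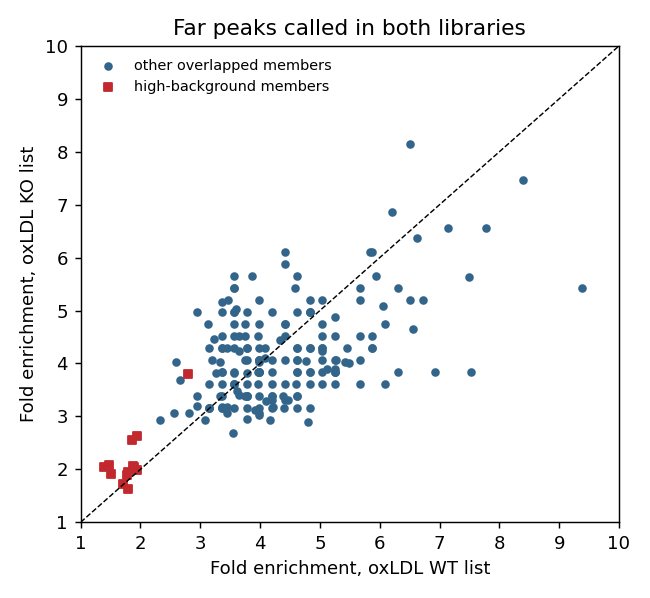
Fold enrichment in the oxLDL WT list (x axis) and the highest of the overlapping oxLDL KO peaks (y axis) for the 205 overlapped members, with a dashed line of equal values. High-background members, shown as squares, have an oxLDL WT value of at most 2.80, and the one between Fbxo15 and Neto1 reaches 3.81 in oxLDL KO.

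The highest far peaks were split between shared and unshared sites. The highest shared peak had 9.38, beside 5.43 in the oxLDL KO list, and lay 80.8 kb from Tomm20, a mitochondrial import receptor gene, and 255.9 kb from Irf2bp2. A peak 25.5 kb from Ptchd3 and 87.3 kb from Metrnl, which encodes a secreted meteorin-like protein, had 8.40 and 7.47. A peak 69.1 kb from the potassium channel tetramerisation domain gene Kctd12 had 7.77 and 6.56, and was also in the untreated WT list with 3.78. The peak between Pkdcc and Eml4 had 7.53 and 3.84, and that between the focal adhesion kinase gene Ptk2 and Dennd3 had 7.49 and 5.63. A peak 39.1 kb from P2ry2, a receptor for extracellular nucleotides, had 7.14 and 6.56.

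Shared peaks also lay beside genes of macrophage regulators. A peak 279.7 kb from Maf, a macrophage transcription factor gene, and 70.8 kb from Wwox had 6.93 and 3.85. A peak 22.7 kb from Nfkbia, the gene of an inhibitor of NF-kB, had 6.63 and 6.38. The other 2 of the top 10 lay between Ggta1 and Dab2ip (6.72 and 5.20) and between Idh2 and the semaphorin gene Sema4b (6.56 and 4.64). Of the 10, the Kctd12 peak was the one also found in an untreated list.

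Among the members with no oxLDL KO peak, the highest was 7.98, 32.5 kb from the kinase gene Prkcq and 137.7 kb from Pfkfb3, which encodes a regulator of glycolysis. A peak 35.8 kb from Plxna1, a semaphorin receptor gene, had 7.48. A peak 85.6 kb from Ifngr1, the interferon-gamma receptor gene, and one 57.0 kb from the zinc finger factor gene Klf6 both had 6.93, and the latter had an untreated WT peak of 4.32. Lpp and Tprg flanked another of 6.93. A peak 251.5 kb from Tbl1xr1, a corepressor subunit gene, had 6.72, and one 49.1 kb from Mef2a, a transcription factor gene, 6.51. The remaining 3 lay beside Spata48 and 4930512M02Rik (6.51), Cep78 and the G protein gene Gnaq (6.30), and St3gal1 and Zfat (6.26). All 10 had a pileup of at least 29 fragments.

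Members were spread over many gene-free intervals, the stretches between neighbouring protein-coding genes, and some intervals held several. Of 5283 intervals over 40 kb, 560 held a member, as did 4 stretches between a chromosome end and its first or last gene. Of these 564, 340 held 1, 115 held 2 and 109 held 3 or more. The 109 intervals held 524 members (47.9%). A member had another within 10 kb in 487 cases (44.5%). Short intervals were denser: those of 40 to 100 kb held 3.999 members per Mb of far sequence, those of 100 to 300 kb 2.13, those of 300 to 1000 kb 0.830 and those over 1000 kb 0.272. Members in the 109 intervals were overlapped in oxLDL KO in 109 of 524 cases (20.8%, interval 17.5 to 24.5) and the others in 96 of 570 (16.8%, interval 13.99 to 20.1), and these intervals overlap. Of the 109, 43 had no overlapped member, 18 had no oxLDL KO peak at all, and 3 had all members overlapped. The share over all members was 18.7%, so an interval with few members can readily have none overlapped.

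The interval with the most members lies between Irf2bp2, which encodes a corepressor that binds the interferon regulatory factor IRF2, and Tomm20 (chromosome 8, 126593986 to 126930664). It held 19 members over 244.0 kb, with fold enrichments of 2.92 to 9.38, and 7 of them were overlapped in oxLDL KO. For this and the intervals below, the share over all members was 18.7% and over all narrow peaks 24.8%. The overlapped members had 5.25, 3.37, 3.36, 5.04, 9.38, 5.04 and 3.75 in oxLDL WT and 4.53, 5.16, 3.18, 4.53, 5.43, 4.30 and 4.07 in oxLDL KO. All 7 lay 161.7 kb or more from Irf2bp2. The 4 members of this interval nearer to Irf2bp2, at 71.3 to 90.6 kb with 3.19, 5.25, 4.20 and 3.57, had none. The oxLDL KO list had 15 peaks in this interval, and neither untreated list had any. Outside it, towards Tarbp1, a member 22.6 kb from Irf2bp2 was overlapped (4.83 and 3.17).

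The next interval flanks Irf2bpl, a paralog of Irf2bp2 (Lrrc74a to Irf2bpl, chromosome 12, 86769025 to 86880703). It held 11 members in 36.0 kb, 44.1 to 80.1 kb from Irf2bpl, with 2.33 to 5.67, and 4 were overlapped. The highest had 5.67, beside 4.07 in oxLDL KO, while the member of 5.23 had no oxLDL KO peak. All 4 oxLDL KO peaks of the interval overlapped a member. Irf2, the gene of the factor itself, flanked 5 members of 3.15 to 4.41 at 39.3 to 47.5 kb, of which 1 was overlapped (3.19 and 4.07).

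Zfp36l2, which encodes a protein that promotes mRNA decay, flanked 10 members at 34.7 to 83.3 kb (Haao to Zfp36l2, chromosome 17, 83848981 to 84183924). They had 3.13 to 5.25, and the 2 overlapped ones had 4.62 and 4.41, beside 3.85 and 5.88 in oxLDL KO. The second of these also had a peak of 4.05 in untreated WT. The 2 highest, 4.83 and 5.25, had no oxLDL KO peak.

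Nfe2l2, which encodes NRF2, the main activator of antioxidant genes, flanked 10 members at 26.8 to 87.5 kb (Nfe2l2 to Agps, chromosome 2, 75704663 to 75832177). Their fold enrichment was 3.07 to 4.83, and 3 were overlapped: 4.83, 3.55 and 3.99 in oxLDL WT beside 4.30, 2.69 and 4.75 in oxLDL KO. Of the 10, 8 lay 63.4 to 87.5 kb from Nfe2l2, and the 10 lay 40.1 to 100.7 kb from Agps. One of these 8, with 3.57, overlapped the start of the lncRNA Gm13657.

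Nrp1, a receptor for semaphorins and vascular endothelial growth factor, flanked 10 members at 85.1 to 299.1 kb (Pard3 to Nrp1, chromosome 8, 127612286 to 128358591). They were low, from 3.15 to 4.41, and 3 were overlapped, with 3.36, 3.15 and 4.40 in oxLDL WT and 3.39, 3.62 and 3.17 in oxLDL KO. The oxLDL KO list had 8 peaks in this interval. Of the 5 that overlapped no member, 1, close to Nrp1, overlapped an oxLDL WT peak that is not a member.

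Between Agtr1b and Tbl1xr1 (chromosome 3, 20367177 to 22076253) 9 members stood, none overlapped. Of these, 8 lay 84.1 to 269.3 kb from Tbl1xr1, with 3.57 to 6.72, and 1 lay 49.8 kb from Agtr1b with 3.36. The oxLDL KO list had 2 peaks there, of 3.17 and 3.37. The interval between Klf14 and Mkln1 held 8 members of 3.57 to 5.25, of which the highest was overlapped (3.85 in oxLDL KO). The oxLDL KO list had 2 further peaks there, of 4.53 and 5.43, at 121.4 and 122.2 kb from Klf14, where an oxLDL WT peak too wide to be a member lay.

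With Klf14 to Mkln1, 9 intervals held 8 members each, and the 4 described are those with the highest summed fold enrichment. The 5 others lay between Xcr1 and Ccr1, Kcnrg and Dleu7, Atf3 and Nenf, Cstad and 1700001O22Rik, and Marcks and Rfpl4b, with 1, 2, 0, 0 and 1 overlapped members. Bcl2l11, which encodes the pro-apoptotic protein BIM, flanked 8 members of 3.15 to 6.30 at 41.5 to 233.1 kb. The 3 overlapped ones had 4.62, 3.62 and 6.30 in oxLDL WT and 3.39, 3.48 and 5.43 in oxLDL KO. Atp2b1, a plasma membrane calcium pump gene, flanked 8 at 33.0 to 396.5 kb, of which the highest was overlapped (6.30 and 3.85). Arf6, the gene of a small GTPase of membrane traffic, flanked 8 at 43.6 to 140.5 kb, which lay 34.2 to 131.2 kb from Gm46353. Of these 8, 3 were overlapped (3.57, 5.88 and 3.57 beside 4.30, 6.11 and 3.62). The first 2 of these were also in the untreated WT list, with 5.40 and 6.22, a higher value within that shorter list.

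**Figure D4:**
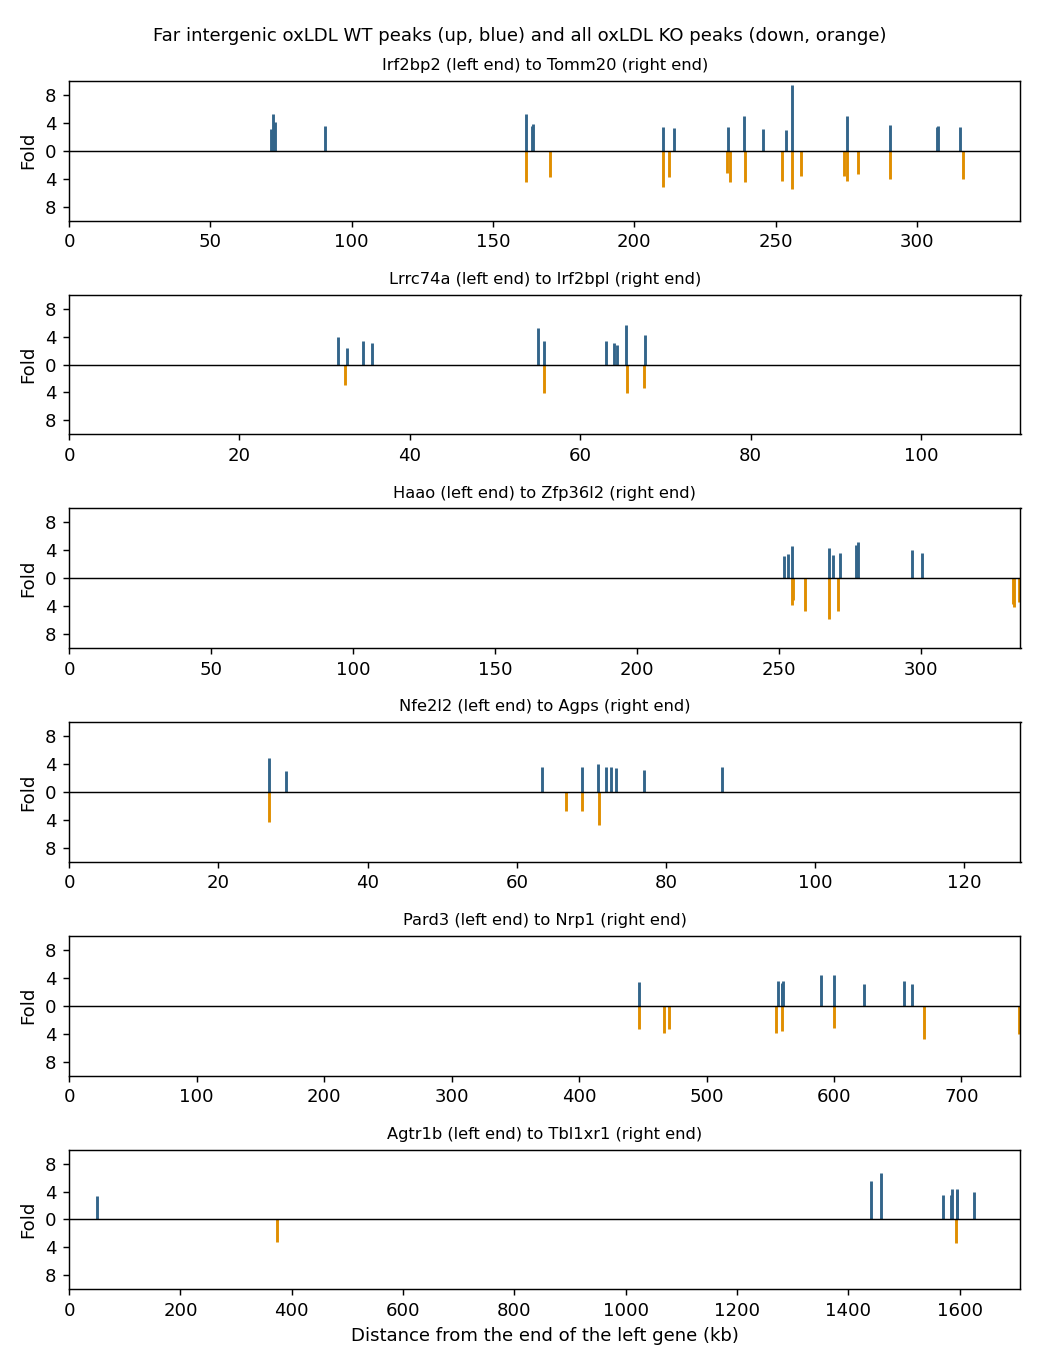
Fold enrichment of the far intergenic oxLDL WT peaks (upward lines) and of all oxLDL KO peaks (downward lines) in the 6 gene-free intervals with the most members, by distance from the end of the left gene (kb); each panel spans the whole interval. Members crowd in parts of each interval, such as the 8 lying 84.1 to 269.3 kb from Tbl1xr1, where the oxLDL KO list has 1 peak.

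Flanking genes, the nearest protein-coding gene on each side of a member, numbered 1081, which is 5.26% of the protein-coding genes on chromosomes 1 to 19 and 13.4% of those beside a gene-free interval over 40 kb. The second background fits better than the first, since other genes could not flank a member, but it does not account for interval length. The share of intervals with a member rose with length, from 5.70% at 40 to 100 kb to 23.2% over 1000 kb. The lists below were not matched for it, and they were chosen with earlier results of these data known. Of 32 myeloid transcription factor genes, 24 stood beside such an interval and 12 flanked a member. Of 26 AP-1 and immediate early genes it was 8 of 14, of 28 interferon genes 4 of 7, of 26 NRF2, iron and stress genes 5 of 10 and of 22 adhesion and guidance genes 8 of 11. Growth and survival genes had 9 of 20, Kruppel-like factors 5 of 13, lipid genes 7 of 19, macrophage surface and effector genes 3 of 10 and inflammatory genes 4 of 20. Among lists of other cells, lymphocyte genes had 0 of 6, neutrophil genes 0 of 5, hepatocyte genes 1 of 10, stromal genes 1 of 15, neuron genes 2 of 19 and erythroid and megakaryocyte genes 1 of 3. Hox genes had 0 of 8, SWI/SNF subunit genes 1 of 9, cadherin and protocadherin genes 8 of 27, vomeronasal receptor genes 2 of 220 and olfactory receptor genes 2 of 252. A member counts for the genes on both sides, so a listed gene need not be the nearer of them. With the nearest gene only, 63 listed genes flanked a member, against 82 with both sides. These counts describe 1 library, and no test of the lists was made.

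**Figure D5:**
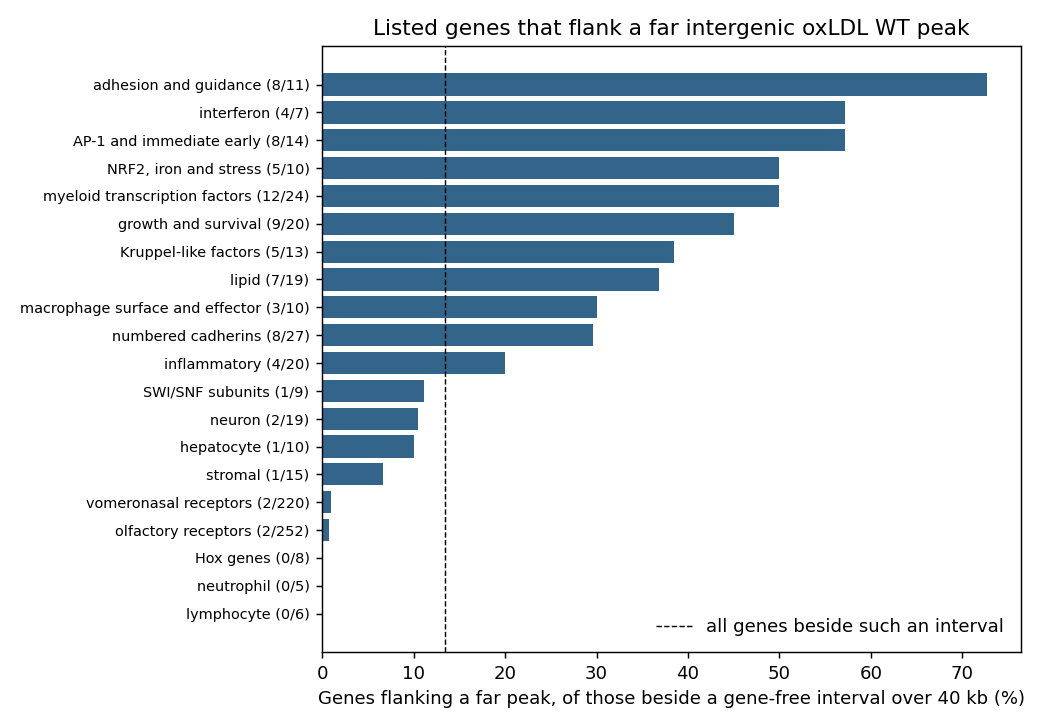
Share of listed genes that flank a far intergenic oxLDL WT peak, of those beside a gene-free interval over 40 kb (%), with both counts in brackets, for lists with at least 5 such genes; the dashed line is the share over all genes beside such an interval, 13.4%. Adhesion and guidance genes stand at 8 of 11 and olfactory receptors at 2 of 252. The lists were chosen with earlier results known and were not matched for interval length.

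Among myeloid transcription factor genes, Cebpb flanked 6 members, 26.7 to 87.4 kb away, with 2.84 to 6.51. The highest had the highest oxLDL KO value of all overlapped members, 8.15, against 6.51 in oxLDL WT. Zeb2 flanked 5, 30.5 to 3339 kb away, with 3.99 to 5.67, of which 1 was overlapped (4.41 and 4.07). Its farthest members lay 1326 and 3339 kb away, and the latter was nearer to Acvr2a, on the other side. Mef2a flanked 4 with 3.57 to 6.51, of which 1 was overlapped (6.09 and 3.62). Runx1, a gene of blood cell specification, flanked 4 with 3.13 to 4.38, none overlapped. Over the whole list, 8 of 34 members were overlapped, near the 18.7% of all members and the 24.8% of all narrow peaks.

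AP-1 and immediate early genes flanked 29 members, of which 1 was overlapped, beside 18.7% of all members. It was a peak 53.7 kb from Jun with 3.78, beside 4.98 in oxLDL KO. Atf3, a stress-induced transcription factor gene, flanked 8 members of 2.46 to 4.41, at 33.2 to 98.2 kb, and none was overlapped. The same 8 lay 25.2 to 90.3 kb from Nenf, the gene on the other side, and most were nearer to it. The oxLDL KO list had 4 peaks in this interval, the highest of 4.75, that overlapped none of the 8. Ier5 flanked 5 of 3.13 to 4.83, and the AP-1 subunit gene Fosl2 flanked 4 of 2.73 to 5.19, with none overlapped at either. One Ier5 member, of 4.59, had an untreated WT peak of 3.78. Jun itself flanked 5.

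Of the Kruppel-like factor genes besides Klf14, Klf6 flanked 6 members of 2.94 to 6.93. The 3 that were overlapped were not the highest: 3.99, 3.15 and 3.99 in oxLDL WT, with 3.07, 3.17 and 4.30 in oxLDL KO. Klf13 flanked 4 and Klf7 flanked 3, with 1 overlapped at each. The Klf7 one had 5.88 and 4.30. Over the whole list, Klf14 included, 6 of 24 members were overlapped, beside 18.7% of all members and 24.8% of all narrow peaks.

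Lipid genes flanked 15 members, and none was overlapped in oxLDL KO, where the share over all members was 18.7%; a count this small is a description only. Lpl, which encodes lipoprotein lipase, flanked 4 of 3.15 to 3.78, and the sterol sensor gene Insig1 flanked 2 of 3.57 and 4.62. Pparg, a lipid-sensing nuclear receptor gene, flanked 2 of 3.78 and 4.38, and Mylip, which encodes a ligase that marks the low-density lipoprotein receptor for breakdown, 2 of 3.15 and 3.90.

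Inflammatory genes flanked 6 members, of which 4 were overlapped, beside 18.7% of all members, and 6 members are few. Besides the Nfkbia peak, the 2 members beside the chemokine gene Ccl3 had 4.08 and 3.99 in oxLDL WT and 4.10 and 4.07 in oxLDL KO. The member 28.5 kb from the chemokine gene Ccl2 had 5.88 and 4.30. Il6 flanked 1, at 158.2 kb with 3.78, that was not overlapped. Among interferon genes, Ifngr1 flanked 2 of 6.09 and 6.93 and Ifnar2 flanked 2 of 3.78 and 4.20, none overlapped, and Ifnar1 flanked 1 that was (3.78 and 4.07). Over the interferon list, 2 of 10 members were overlapped, beside the same 18.7%.

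Of the stress list after Nfe2l2, Fth1, which encodes the ferritin heavy chain, flanked 7 members of 2.78 to 4.62 within 27.5 to 49.6 kb, with 1 overlapped (4.47 and 3.32). The cystine transporter gene Slc7a11 flanked 3, with 2 overlapped (4.41 and 3.99 beside 3.62 and 3.85), and the iron exporter gene Slc40a1 flanked 2 of 2.94 and 5.04 that were not. Of the growth list after Bcl2l11, Myc flanked 5 of 2.66 to 4.20 and Vegfa 4 of 2.92 to 3.57, none overlapped, and Igf1 2 of 3.99 and 4.83, likewise. Over the whole lists, 6 of 24 stress members and 7 of 27 growth members were overlapped, beside 18.7% of all members.

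Among adhesion and guidance genes Nrp1 flanked 11 members in all, and Plxna1, a semaphorin receptor gene, flanked 7 of 3.56 to 7.48, with 1 overlapped (3.78 and 3.17). Plxnc1 flanked 3 and none was overlapped, and the hyaluronan receptor gene Cd44 flanked 3, with 1 overlapped. Of the macrophage surface and effector list, Ccr2, the receptor of Ccl2, flanked 5 members of 2.84 to 4.62 within 33.1 to 48.7 kb, of which the highest was overlapped (4.30). Fcgr4, an Fc receptor gene, flanked 1 of 4.83 and Sirpa 1 of 3.36. Over the whole lists, 7 of 27 adhesion and guidance members and 1 of 7 macrophage members were overlapped, beside 18.7% of all members. In the other lists most genes flanked 1 member: Arid1b (4.41), Nefm (3.96, overlapped), Cyp7a1 (3.15), Vwf (4.17, in 2 lists), Cdh10 and Cdh12 (the same peak, 5.46), Cdh19 (3.70), Olfr266 (3.99), and Vmn2r82 and Vmn2r83 (the same peak, 3.15). Cdh18 flanked 4 of 3.57 to 4.83, all 1805 to 1825 kb from it, with 1 overlapped (4.83 and 4.30), and Olfr161 flanked 2.

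Few far sites were called in untreated cells, whose lists hold 237 peaks in WT and 139 in KO. An untreated WT peak overlapped 22 members (2.01%, interval 1.33 to 3.03), where the background over all narrow oxLDL WT peaks was 1.27%, and an untreated KO peak overlapped 12, where it was 0.621%. Of these, 9 and 9 were high-background members, and without high-background members the untreated WT share was 1.21%. Among the 13 others in untreated WT, 8 were also overlapped in oxLDL KO, beside 18.7% of all members. The 8 included a peak between Jade2 and Cdkn2aipnl (4.08 in oxLDL WT, 4.30 in oxLDL KO and 5.40 in WT) and a second peak near Metrnl (5.25, 3.85 and 3.51).

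High-background members had a local background over 5 times the lowest of the list, that is, above 18.8 fragments. There were 17 of them, with a fold enrichment of 1.39 to 2.80 and a background from 22.3 to at least 2964 fragments. The highest backgrounds are lower bounds, because their recovery stopped short at very high −log10 p. Of these 17, 13 were overlapped in oxLDL KO, beside 18.7% of all members, and 8 had a peak in all 4 lists. They included the pair between Lrrc4c and Iftap, a pair on chromosome 14 near Gm2244, a pair between Tcp10c and Tcte2 and a peak between Ly6c1 and Ly6c2, genes of a monocyte surface antigen family. Without them, 192 of 1077 members were overlapped in oxLDL KO (17.8%), and beyond 500 kb from a gene 0 of 14.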

How the data were processed

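BRG1 ChIP-seq peaks of 4 libraries were used, 1 per group, with groups taken from sample titles. Per the submitters' processing notes, bcl2fastq 2.17, Trimmomatic 0.33, Bowtie2, MACS3 and mm10 were used, with no roles or parameters. The authors deposited 1 peak list per library, holding a score (10 times −log10 q), the fold enrichment (a ratio), −log10 p, −log10 q and the summit offset. Chromatin was prepared with an enzymatic kit, per the labels' protocols.

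Gene positions came from a RefSeq table on GRCm38.p6, where 108 protein-coding rows with scaffold positions before 3 Mb were dropped, leaving 21779 on chromosomes 1 to 19, X and Y. Summits were the start plus the offset. Pileup and background were recovered by solving the deposited fold, with a pseudocount of 1, and the Poisson p-value. This was tested on simulated data with low pileups only, like those of most members. At very high −log10 p the solving stopped short, so the highest backgrounds given are lower bounds. Sequence lengths per class were counted on chromosomes 1 to 19, from 3 Mb up to the end of the last gene. Overlap meant at least 1 bp. Python 3.11.15 and SciPy 1.17.1 were used.

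Members and gene lists were chosen with earlier results of these data known. Named were the 10 highest overlapped and 10 highest other members, the 5 farthest, and the 2 on each side of the limit with a tie inside it. Also named were the 10 intervals with the most members (ties by summed fold enrichment), and up to 4 genes per list by members flanked. Other peaks, genes and lncRNA windows were chosen after their values were seen. No genome sequence was used here, so motifs were searched in RefSeq promoter windows, which hold none for chromosome 18.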

Additional observations from a re-analysis of the deposited data

How the results depend on the processing

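No paired analysis was possible because each group has 1 library, so leaving out a replicate was not possible either. Of 40 alternatives tried, 20 stayed within the counting interval, or within 1.5 times the count, of the values above. A limit of 50 kb left 526 members, 50 intervals with 3 or more and 44 listed genes flanking a member. Where −log10 q reached 2, the overlapped share was 22.7% and the median fold enrichment 3.83. At 5 there were 256 members, an overlapped share of 40.2%, a median of 4.83, 9 intervals and 39 listed genes, against 82 with all peaks. With all annotated genes setting the distance there were 334 members, 21 intervals and an overlapped share of 15.0%. A reciprocal overlap of 50% gave 11.97%, summits within 200 bp 14.8%, and oxLDL KO peaks with a −log10 q of at least 2 gave 16.2%. There were 224 intervals with 2 or more members and 44 with 5 or more. Alternatives added after seeing the data gave an untreated WT share of 1.21% without high-background peaks and an oxLDL KO share of 38.1% for members of −log10 q 5 or more once those were left out. The cause of these shifts was not tested, except that stricter limits leave fewer peaks by construction. Of the 20 highest named peaks, 1, near Metrnl, changed its overlap call, at a reciprocal 50%. Peaks rest on a median of 17 fragments, so a site without a peak in oxLDL KO was not called there at this depth, which is not the same as unbound.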
